A study of Mus musculus with 16 samples.

Results

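A pair of short hairpin RNAs (shRNAs) against the same transcript, Twist1, were compared with each other in mouse cortical neurons that carried mutant huntingtin. The comparison used 8 of the 16 libraries of the series, 4 with Twist1 shRNA 1 and 4 with Twist1 shRNA 2, taken by the group given in the sample titles. All were primary cortical neurons of Swiss Webster mice at embryonic day 16, which received at day 5 in vitro a lentivirus carrying exon 1 of huntingtin (Htt) with a mutant tract of 72 glutamines (72Q) and a second lentivirus carrying the shRNA, and RNA was taken at day 10. The libraries used beside them were 4 of 72Q with a control shRNA against luciferase and 4 of wild-type exon 1 with 25 glutamines (25Q) and the same control shRNA. The 4 experiments, named exp107, exp108, exp109a and exp109b, each gave 1 library of each group, so that the shRNAs were compared within experiments. No Twist1 shRNA was analysed here in 25Q neurons, and the hairpin sequences were not used here. The labels do not say whether the libraries of a group came from separate animals, and a p-value here covers only the spread among libraries, part of which may be technical.

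The Twist1 protein binds DNA as a dimer through a basic helix-loop-helix (bHLH) domain, acts in neural crest and mesoderm, and is known for driving epithelial-mesenchymal transition, and expanded huntingtin is the cause of Huntington disease. An shRNA is cut by Dicer into a short duplex, of which a guide strand leads an Argonaute protein to transcripts that it pairs with. A fully paired transcript is cleaved, and, as with a microRNA, pairing of the guide's seed, the bases next to its 5′ end, with the 3′ untranslated region (3′UTR) of other transcripts can also lower them. Genes are for this reason often silenced with more than a single shRNA, and the shRNAs are then compared for the target and for everything else.

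Library totals ran from 15814525 to 19533034 counts over the 16 libraries. Principal component 1 of the 8 shRNA libraries held 50.44% of the variance and split them by shRNA, with shRNA 1 at 22.22 to 30.89 and shRNA 2 at -32.15 to -20.48. Transcripts of the mitochondrial genome made up 2.39 to 3.26% of counts with shRNA 1 and 2.10 to 2.78% with shRNA 2, and the 100 most counted genes held 17.0 to 17.5% and 15.6 to 16.1%; the part of either in the results was not tested. Levels below are CPM, a gene's count relative to the library total, scaled by TMM factors, in the order exp107, exp108, exp109a and exp109b. A log2 difference is shRNA 1 minus shRNA 2 unless said otherwise, given ± SE from edgeR's quasi-likelihood fit, and a gene is said to differ, rise or fall where its p adjusted over 15103 genes (Benjamini-Hochberg) was under 0.05.

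Twist1 itself did not differ between the shRNAs. Its level was 1.82, 1.69, 0.904 and 1.87 scaled CPM with shRNA 1 and 1.40, 2.19, 1.29 and 1.70 scaled CPM with shRNA 2. The ranges overlapped, and both lay below the control shRNA in 72Q, at 4.15 ± 0.763 (SD, n = 4), and above 25Q, at 0.271 ± 0.225. The log2 difference between the shRNAs was -0.07 ± 0.24 (95% interval -0.56 to 0.42, adjusted p = 0.83). Against the control the log2 differences were -1.35 ± 0.21 (adjusted p = 1.5e-06) with shRNA 1 and -1.29 ± 0.20 (adjusted p = 3.0e-06) with shRNA 2, comparisons that share their control libraries. The counts behind these levels were 110 and 125 reads summed over 4 libraries, so a difference smaller than that interval was not detectable at this depth. Htt, counted on the mouse gene, was at 253 ± 21.9 scaled CPM with shRNA 1 and 223 ± 28.1 with shRNA 2, a log2 difference of 0.18 ± 0.05 (adjusted p = 0.0043) with overlapping ranges, whose call was lost without the experiment block (adjusted p = 0.161).

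Beyond the target, the transcriptomes of the shRNAs differed widely. Of 15103 genes tested, 8030 (53.2%) differed, 4116 (27.3%) with more transcript under shRNA 1 and 3914 (25.9%) with more under shRNA 2. Most differences were small: the median absolute log2 difference of the called genes was 0.37, and 586 genes (3.88%) differed by at least 2-fold. Of those, 182 were higher with shRNA 1 and 404 with shRNA 2, and at 4-fold or more the counts were 5 and 44. The sign was the same in all 4 experiments for 7542 called genes (93.92%) and for 582 of the 586, and in 5021 genes (33.2%) the 4 values of each shRNA did not overlap. Scaled to library totals alone, the genes called were 2967 higher with shRNA 1 and 5164 higher with shRNA 2, and the median of all genes moved from 0.005 to -0.077. Against the shared control libraries, shRNA 1 changed 6999 genes (46.3%), 3434 up and 3565 down, and shRNA 2 changed 6307 (41.8%), 3057 up and 3250 down; without the experiment block these counts were 4561 and 3621. The libraries of exp109a and exp109b were the closest replicates in 3 of the 4 groups, and the labels do not say how separate these experiments were; with both summed as 1 experiment, 7646 genes differed between the shRNAs, 3898 higher with shRNA 1 and 3748 with shRNA 2.

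**Figure D1:**
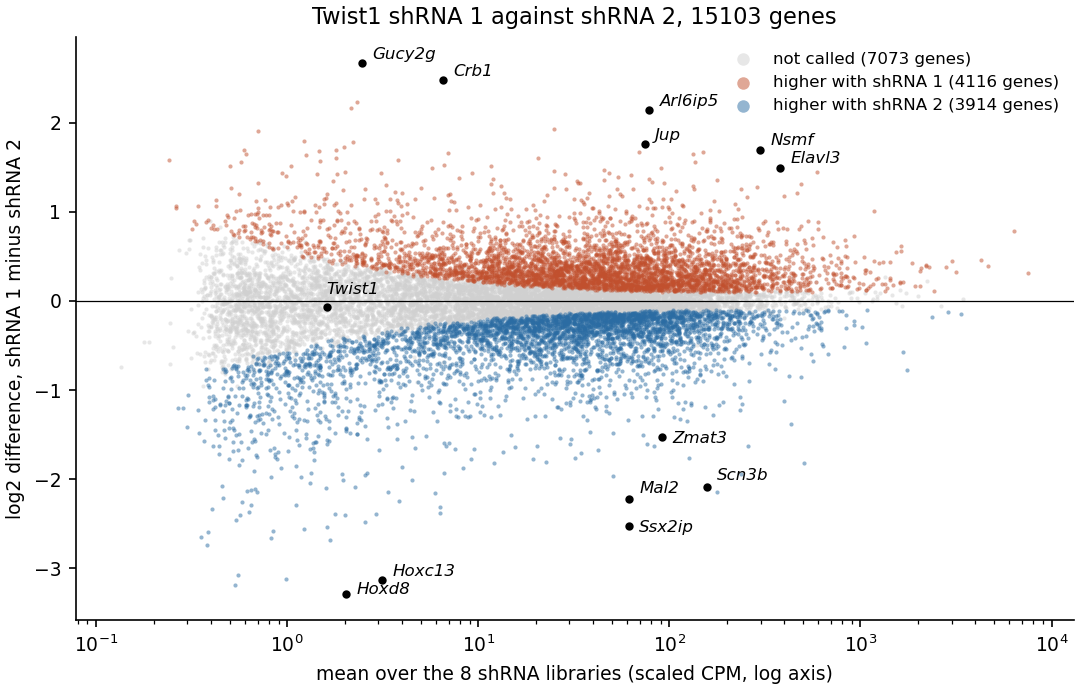
Each point is 1 of 15103 genes, with its mean scaled CPM over the 8 shRNA libraries on a log axis (x) and its log2 difference, shRNA 1 minus shRNA 2 (y); coloured points passed an adjusted p of 0.05. The 44 genes at least 4-fold higher with shRNA 2 lie at the bottom, against 5 at the top, while Twist1 lies near 0.

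Several well-measured transcripts were far lower with shRNA 1 than with the control and lay much nearer to it, on either side, with shRNA 2. Ssx2ip, a centrosome and cell-junction protein, was at 19.9, 14.0, 20.1 and 18.4 scaled CPM with shRNA 1 and 115, 93.8, 107 and 101 scaled CPM with shRNA 2. Every shRNA 1 library was far below every shRNA 2 library, and the 72Q control stood at 92.1 ± 6.49. Its log2 difference was -2.52 ± 0.06 (adjusted p = 3.1e-23). Mal2, a membrane protein of transcytosis and synaptic vesicles, was at 23.7, 19.3, 18.9 and 24.7 scaled CPM with shRNA 1 and 111, 106, 97.4 and 90.2 with shRNA 2, again without overlap, and at 76.5 in the control (log2 difference -2.22 ± 0.08). Scn3b, a sodium channel beta subunit, was at 55.7, 53.9, 60.4 and 69.4 scaled CPM with shRNA 1 and 250.1, 228, 254 and 283 with shRNA 2. Its groups did not overlap, the control was at 307, and the log2 difference was -2.08 ± 0.06. Zmat3, an RNA-binding protein induced by p53, was at 46.8, 41.7, 50.8 and 49.9 scaled CPM with shRNA 1 against 128, 121, 142 and 154 with shRNA 2, without overlap, and at 153 in the control (log2 difference -1.52 ± 0.05).

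The same order was seen in transcripts of other roles. Dnajb2, a co-chaperone that helps clear misfolded protein, was at 40.6 scaled CPM with shRNA 1 and 125 with shRNA 2 (log2 difference -1.62 ± 0.06), with the control at 104. Fzd3, a Wnt receptor needed for axon tracts, was at 61.2 and 150.1 (log2 difference -1.30 ± 0.05). Gabrg3, a gamma subunit of GABA-A receptors, was at 20.4 and 56.8 (log2 difference -1.47 ± 0.08). None of these 3 genes had overlapping groups. Celf1, an RNA-binding regulator of splicing and decay, had 89.0 scaled CPM with shRNA 1 against 161 with shRNA 2 and 163 in the control. Scn2b, another sodium channel beta subunit, stood on both sides of the control: it rose with shRNA 2 against the control by 0.91 ± 0.05 on the log2 scale and fell with shRNA 1 by 0.22, which gave a log2 difference of -1.13 ± 0.05 between the shRNAs.

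In the other direction, a set of neuronal transcripts was low under shRNA 2 and close to or above the control under shRNA 1. Arl6ip5, a membrane protein that regulates glutamate transport, was at 132, 128, 124 and 127 scaled CPM with shRNA 1 and 29.7, 28.9, 27.5 and 29.4 scaled CPM with shRNA 2. All shRNA 2 libraries were far below all shRNA 1 libraries, the control was at 118 ± 5.60, and the log2 difference was 2.14 ± 0.05 (adjusted p = 1.2e-24). Elavl3, a neuronal RNA-binding protein, was at 529.6, 528, 608 and 583 with shRNA 1 and 206, 155, 211 and 230.3 with shRNA 2. The groups were far apart, with the control at 542 and a log2 difference of 1.50 ± 0.05. Tbr1, a transcription factor of deep-layer cortical neurons, was at 56.5, 51.4, 58.1 and 46.3 with shRNA 1 and 26.1, 23.1, 20.4 and 21.8 with shRNA 2, also without overlap (control 52.5, log2 difference 1.22 ± 0.07). Shank1, a postsynaptic scaffold, was at 252, 206, 292 and 229.5 with shRNA 1 and 121, 116, 114 and 131 with shRNA 2, without overlap (control 221, log2 difference 1.01 ± 0.09).

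**Figure D2:**
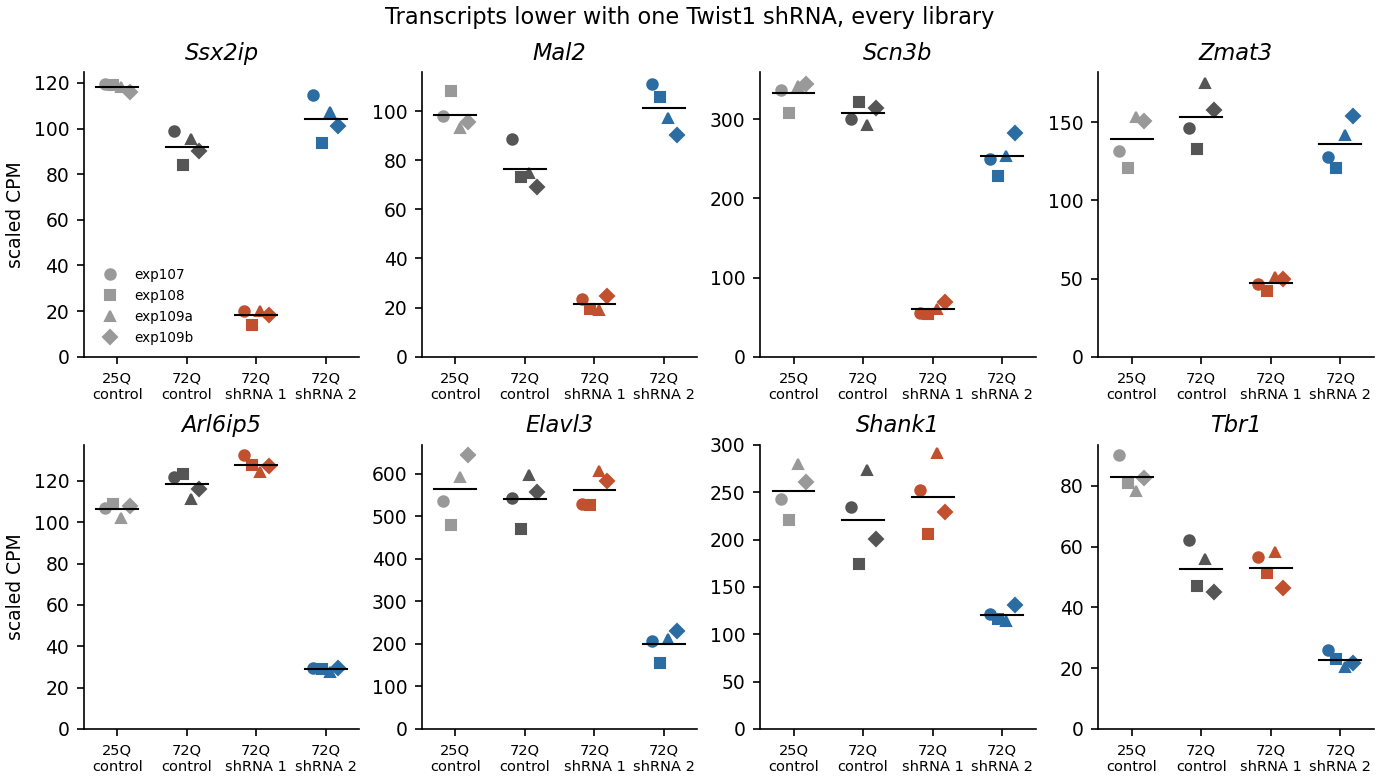
Scaled CPM (y, linear from 0) of 8 transcripts in the 4 groups (x), 1 point per library and a bar at the mean (n = 4). In the upper panels the libraries of shRNA 1 lie below all others, and in the lower panels those of shRNA 2 do.

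Other transcripts stood on opposite sides of the control. Nsmf, a synapse-to-nucleus messenger, was at 458 ± 37.8 scaled CPM with shRNA 1, 257 ± 42.2 in the control and 141 ± 5.75 with shRNA 2 (log2 difference 1.70 ± 0.07), and 25Q stood at 479.7 ± 39.6. Jup, the junction protein plakoglobin, was at 115 with shRNA 1, 63.7 in the control and 33.9 with shRNA 2, and Pak7, a p21-activated kinase, at 106, 59.6 and 33.3. Both rose with shRNA 1 and fell with shRNA 2. Pitpnm3, a phosphatidylinositol transfer protein, Gucy2g, a receptor guanylate cyclase, Atp12a, a proton-potassium pump, and Crb1, a polarity protein, did the same, with log2 differences between the shRNAs of 1.93, 2.67, 2.24 and 2.48. Crb1 was at 11.0, 10.1, 13.4 and 9.98 scaled CPM with shRNA 1, 1.93, 2.13, 1.76 and 1.80 with shRNA 2 and 2.65 in the control, so most of its difference lay on the side of shRNA 1. Atp12a was at 3.88 with shRNA 1, 2.86 in the control and 0.733 with shRNA 2, so most of its difference lay on the side of shRNA 2. Among the 15 genes most raised under shRNA 1 relative to shRNA 2 were also Gm17322 (2.16), Rnase4 (1.79), Scn7a (1.73), D330045A20Rik (1.69), Zfp663 (1.68), Cd24a (1.67) and Bmp6 (1.80), all values on the log2 scale. Of these, Rnase4 shares its locus with another ribonuclease gene, and reads of the pair may not be told apart.

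Some short words in the 3′UTR went with lower levels under each shRNA. All words of 7 bases found on the transcript strand in at least 500 of 13606 genes with an annotated 3′UTR of at least 50 bases (11273 of 16384 words) were ranked by the mean log2 difference of genes with the word less that of genes without it, adjusted for 3′UTR length and base composition. This ranking was chosen after the values had been seen. AAGCTGA had the lowest shift, -0.1925, and AGCTGAA, which shares 6 of its bases, the next, -0.1715. CAGACCC had the highest shift, 0.1156, followed by GACCCTC, 0.0983, with which it shares 5 bases. The 1st and 99th percentiles of all words were -0.0356 and 0.0342. Each of these 4 words held its place, first or next, when the experiments were ranked separately. AAGCTGA lay in the 3′UTRs of 2013 of the 13606 genes (14.79%), AGCTGAA of 2001 (14.71%), CAGACCC of 1642 (12.07%) and GACCCTC of 1272 (9.35%).

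Both words were found close together in the coding sequence of Twist1, the transcript that both shRNAs lowered. The window shown holds them, and capitals mark AAGCTGA and the run made by CAGACCC, by its neighbour GACCCTC and by the lower-ranked ACCCTCA. It is from GENCODE M21 on GRCm38, chr12:33958403-33958452, plus strand, coding bases 426 to 475 of the 618 before the stop codon.
Twist1: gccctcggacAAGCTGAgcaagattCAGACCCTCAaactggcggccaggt
AAGCTGA lay there at coding bases 436 to 442 and CAGACCC at 451 to 457. CAGACCC was also found at coding bases 331 to 337 and at 1 place in the 3′UTR of Twist1, and AGCTGAA was at no place in the 1628 bases of the transcript. AGACCCA, ranked between GACCCTC and ACCCTCA (shift 0.0818, that of ACCCTCA 0.0813), lay outside the window, at coding bases 332 to 338. Of the 11273 ranked words, 974 (8.64%) occurred in the Twist1 transcript. A match describes letters only, and whether either hairpin pairs with these bases was not tested. Among 1679 mature mouse microRNAs of the RefSeq table, no seed (bases 2 to 8) pairs with AAGCTGA or with either of the shRNA 2 words, and 1 pairs with AGCTGAA, that of mmu-miR-6999-3p.

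The same words in the 3′UTRs of the transcripts described above are printed with 11 bases on either side, to show the words in the transcripts they lie in. They are from GENCODE M21 on GRCm38, with capitals marking AAGCTGA in the first 3, low with shRNA 1, and CAGACCC in the others, low with shRNA 2. The sites are chr3:146439460-146439488 (plus strand) for Ssx2ip, chr15:54602622-54602650 (plus) for Mal2, chr9:40288604-40288632 (plus) for Scn3b, chr6:97232623-97232651 (plus) for Arl6ip5, chr11:72049152-72049180 (minus) for Pitpnm3 and chr9:22018368-22018396 (minus) for Elavl3.
Ssx2ip: agccccttcatAAGCTGAgttcagataac
Mal2: aagaaaactcaAAGCTGActaactgtgaa
Scn3b: aaacccttcagAAGCTGAatcactttggc
Arl6ip5: tcccccttgttCAGACCCattttcagtct
Pitpnm3: ttgcgtttggaCAGACCCatttccctcac
Elavl3: tcgagagcaggCAGACCCatacacctgca
Scn3b held AAGCTGA at 3 places of its 3′UTR, Gabrg3 and Fzd3 at 3, Zmat3 and Dnajb2 at 2, and Celf1 at 1. Arl6ip5 and Pitpnm3 held CAGACCC at 2 places, Elavl3 at 3, and Tbr1 and Shank1 at 1. The words were not in every such transcript: Crb1, Bmp6, Irs4 and Hcrtr1 had none of the 4 in the 3′UTR. Some transcripts also held a word of the other pair there: Tbr1 held AGCTGAA, Celf1 held CAGACCC, and Dnajb2 and Scn2b held GACCCTC. Of the 4 words, Lhx4, higher with shRNA 2, held only CAGACCC, and Scn7a, higher with shRNA 1, held only AGCTGAA.

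The median difference grew with the number of matches for both leading words, and with the length of the match for the shRNA 1 words. The 659 genes whose 3′UTR holds the 8-base run AAGCTGAA, which contains both words, had a median log2 difference of -0.2338, and 351 of them (53.26%) were higher with shRNA 2. With AAGCTGA outside such a run (1354 genes) the median was -0.0586, with AGCTGAA alone (1083) -0.038, and with neither word (10510) 0.0263, of which 23.36% were higher with shRNA 2. Genes with AAGCTGA at 1 place had a median of -0.0916, at 2 places -0.2103 and at 3 or more -0.2939. On the other side, genes with CAGACCC at 1 place had a median of 0.0887, at 2 places 0.1573 and at 3 or more 0.3349 (33 genes), against -0.0119 for the 11115 genes with neither CAGACCC nor GACCCTC. The longer run CAGACCCTC added little: its 193 genes had a median of 0.1121, and the 1449 with CAGACCC outside it 0.0993. Words in the coding sequence alone went with smaller gaps between the medians, 0.012 for the first pair against 0.0332 with none, and 0.0241 for the other pair against -0.0243. None of these medians was adjusted for 3′UTR length. In short, middle and long 3′UTRs, genes with either shRNA 2 word had medians of 0.0503, 0.0871 and 0.0993. Genes with neither had -0.0289, -0.0052 and 0.009. For the shRNA 1 words the medians were -0.2266, -0.1378 and -0.0268 with either word, and -0.0142, 0.0382 and 0.0821 with neither. All of these are descriptions of genes, which are not independent replicates, and the words were picked from the same differences.

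Each pair of words went with the shRNA under which the transcripts were low. The shift of AAGCTGA was -0.202 for shRNA 1 against the control and -0.0093 for shRNA 2 against the same control. That of CAGACCC was 0.0123 for shRNA 1 and -0.1038 for shRNA 2. For 72Q against 25Q, where no Twist1 shRNA is involved, the shift of AAGCTGA was 0.0238, within a range of -0.0982 to 0.0791 over all words. AAGCTGA or AGCTGAA was in the 3′UTR of 156 of the 372 genes (41.94%) at least 2-fold lower with shRNA 1 and of 21 of the 172 (12.21%) at least 2-fold lower with shRNA 2, against 22.75% of all genes. CAGACCC or GACCCTC was in 83 of those 172 (48.26%) and 60 of those 372 (16.13%), against 18.31% of all genes. The words were picked from these same differences between the shRNAs, so the shares follow in part from the pick and are no separate evidence. The shifts against the control used the same shRNA libraries. Of the 43 tested developmental transcription factors described next, 12 (27.91%) held a word of the first pair and 11 (25.58%) of the other.

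**Figure D3:**
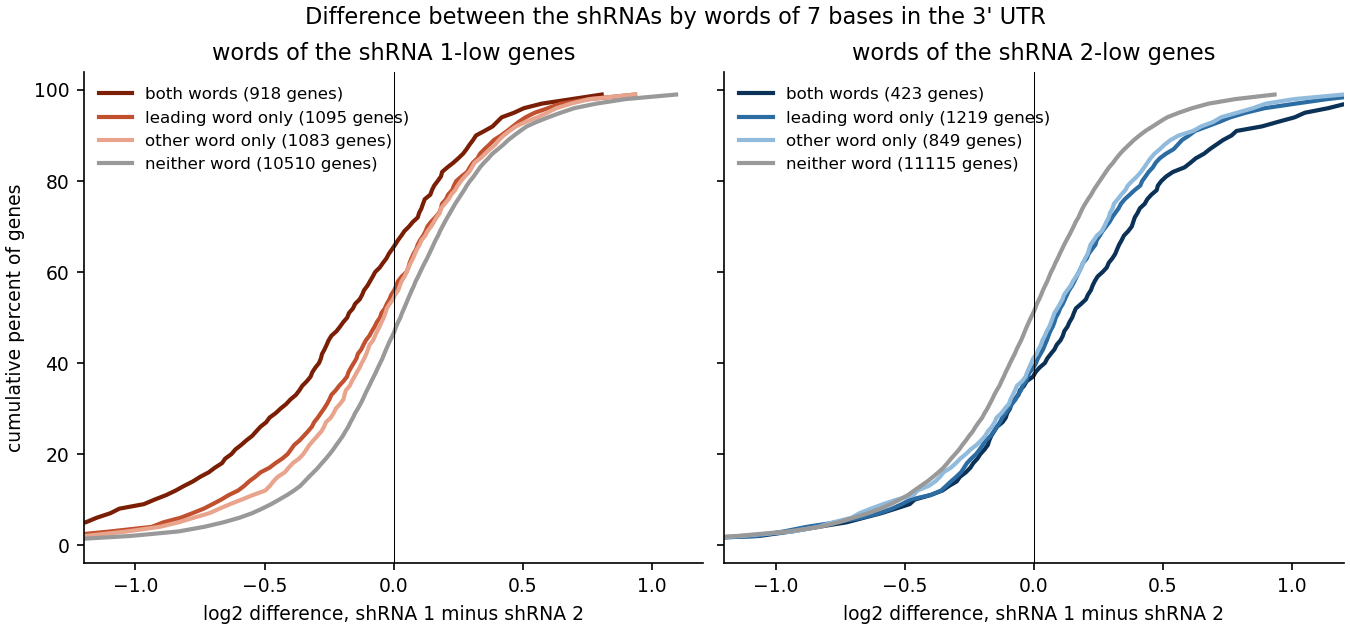
Cumulative share of genes (y) by log2 difference, shRNA 1 minus shRNA 2 (x), for genes with both words of a pair in the 3′UTR, with the leading word only, with the other only and with neither; the left panel shows AAGCTGA and AGCTGAA and the right panel CAGACCC and GACCCTC. Curves of genes with the words lie left of the curve of 10510 genes without them in the left panel, and right of the curve of 11115 genes in the right panel except at its lower end, where the curves meet. The words were picked from these same differences.

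HOX and other developmental transcription factors set the lower edge of the comparison. These genes fix positional and lineage identity in the embryo and are nearly silent in cortical neurons, where Polycomb represses them. Of 65 listed, 43 passed the filter on low counts, which some could pass only through the libraries in which they were high. Of the 43, 40 (93.0%) were higher with shRNA 2 and 1 (2.3%) with shRNA 1, against 25.9% and 27.3% of all genes. Their median log2 difference was -1.49 (all genes 0.005). In 31 of the 43 the groups did not overlap, against 33.2% of all genes. Against the shared control libraries, 33 fell with shRNA 1 and none rose, while 19 rose and 1 fell with shRNA 2. Of all 15103 genes, 3565 fell and 3434 rose with shRNA 1, and 3057 rose and 3250 fell with shRNA 2. All 40 that were raised by 72Q against 25Q were among those higher with shRNA 2. Of all 4431 genes raised by 72Q, 1653 (37.31%) were higher with shRNA 2. The filter on low counts bears on this overlap as well.

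Hoxd8 was at 0.176, 0.358, 0.396 and 0.187 scaled CPM with shRNA 1 and 4.24, 3.06, 4.53 and 3.23 scaled CPM with shRNA 2. The lowest shRNA 2 library was several times above the highest shRNA 1 library, the control lay between, at 1.25 ± 0.197, and 25Q had 1 read in 4 libraries. The log2 difference between the shRNAs was -3.29 ± 0.27 (adjusted p = 1.4e-12), from 20 reads with shRNA 1 and 291 with shRNA 2. Hoxc13 was at 0.588, 0.716, 0.396 and 0.499 with shRNA 1 and 5.10, 5.91, 5.24 and 6.58 with shRNA 2, with the control between at 3.05 (log2 difference -3.13 ± 0.23). Pou4f1, a sensory neuron factor with the highest level per kilobase of the list, was at 6.88, 7.26, 7.34 and 8.86 and 16.4, 20.6, 16.0 and 21.1, without overlap, at 14.2 in the control and at 0.271 in 25Q (log2 difference -1.27 ± 0.09). Lhx4, a LIM homeobox factor of motor neurons and pituitary, was at 1.95 with shRNA 1, 5.47 in the control and 10.6 with shRNA 2. Irs4, an insulin receptor substrate and no transcription factor, showed the same order, with 2.06, 4.41 and 10.6 scaled CPM.

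Other members differed by similar amounts. Tbx20 of the heart, Barx1 of the jaw and stomach, Foxd1 of the kidney stroma and Shox2 of the limb had log2 differences of -2.56, -2.54, -2.48 and -2.40. Developmental factors outside this list, named because they are among the 15 genes most raised under shRNA 2 relative to shRNA 1, were not counted as a group: Foxf1 of the lung and gut differed by -2.24, and the homeobox factors Irx2 and Hoxb13 by -2.39 and -2.39. Hand2 of the heart differed by -3.11. Hand2, which as a bHLH factor can pair with the partners of Twist1, had 8 reads in the shRNA 1 libraries and 143 in those of shRNA 2, and such fitted differences depend on the prior count. Lhx8, a factor of cholinergic neurons, fell with shRNA 1 (-2.65 against the control) and did not pass the test with shRNA 2 (-0.37, adjusted p = 0.12). The listed factor higher with shRNA 1 was Nkx2-2, a factor of the ventral neural tube and oligodendrocyte precursors (log2 difference 0.45 ± 0.16), with overlapping groups, and its call was lost without the exp109a library of shRNA 1 (log2 difference 0.233, adjusted p = 0.183) or of shRNA 2 (0.271, adjusted p = 0.146), without experiment exp107 (adjusted p = 0.0609) and without the experiment block (adjusted p = 0.145). Ebf2 (-0.01, adjusted p = 0.98) and Alx4 (-0.95, adjusted p = 0.065) did not pass the test, though Alx4 did, at -1.189 to -1.351, without the exp109b library of either shRNA or the exp108 library of shRNA 2, and at -0.947 (adjusted p = 0.00877) with no filter on low counts. The list's median was -1.833 with DESeq2, with 36 members higher with shRNA 2, -1.613 with exp109a and exp109b summed as 1 experiment, and -1.257 with no filter on low counts.

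**Figure D4:**
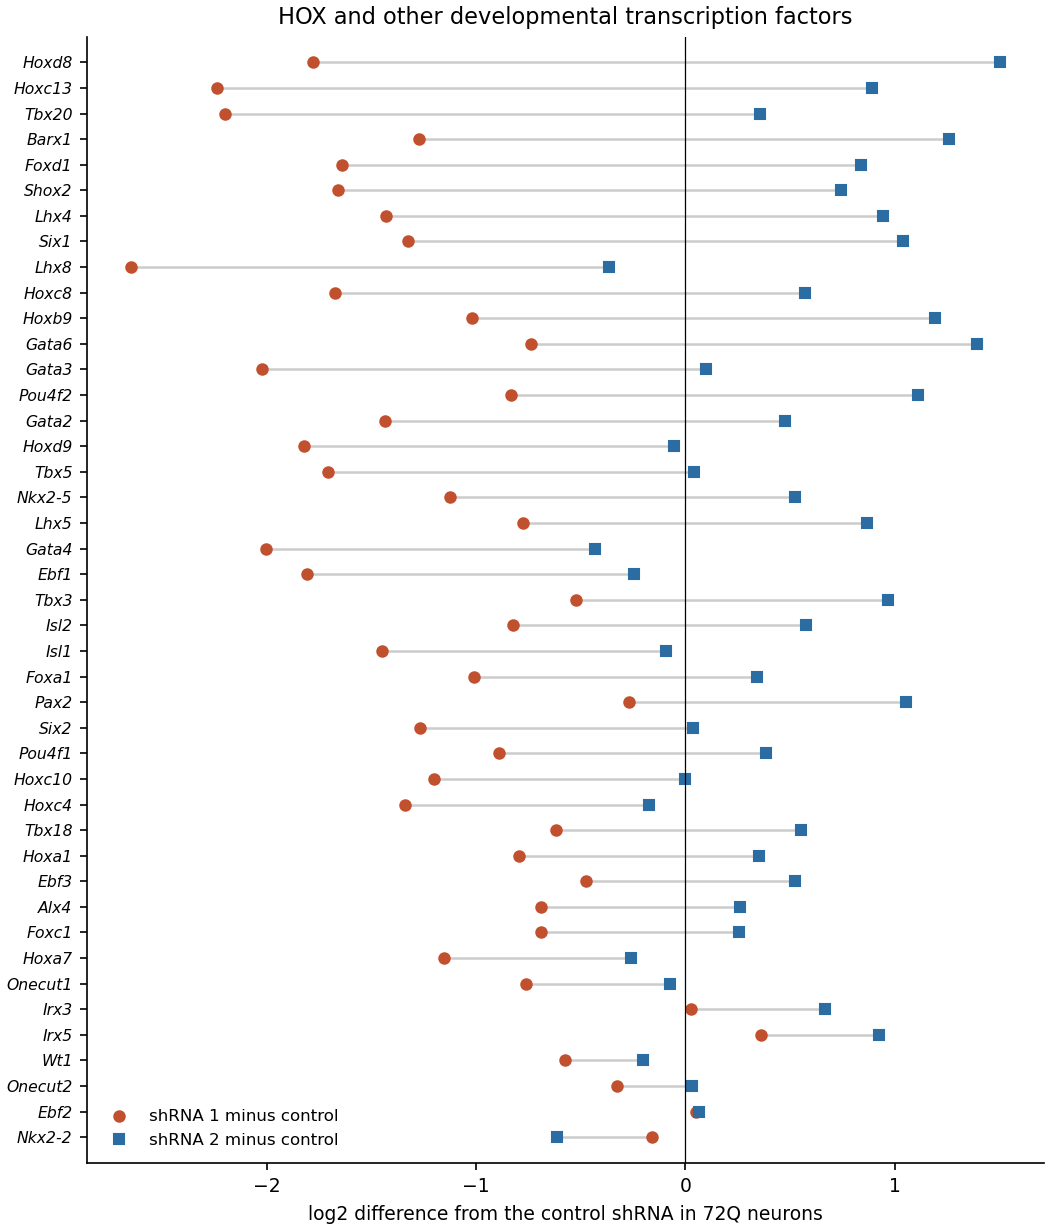
Log2 differences against the 72Q control (x) of the 43 tested developmental transcription factors (rows, sorted by the difference between the shRNAs), 1 point for shRNA 1 and 1 for shRNA 2, which share the control libraries. For 29 genes the point of shRNA 1 lies left of 0 and that of shRNA 2 right of it.

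Genes that respond to p53, to interferon and to stress were more often lower than higher with shRNA 1. Of 37 p53 targets and apoptosis genes, 20 (54.1%) were higher with shRNA 2 and 5 (13.5%) with shRNA 1, against 25.9% and 27.3% of all genes. The median log2 difference was -0.427 (all genes 0.005), and 22 of the 37 fell with shRNA 1 against the control. Ccng1, a cyclin induced by p53, was at 69.2, 63.1, 64.3 and 80.5 scaled CPM with shRNA 1 and 149, 154, 139 and 168 with shRNA 2, without overlap (control 143, log2 difference -1.14 ± 0.05). Hrk, a neuronal death activator of the BCL2 family, had a log2 difference of -1.19 ± 0.07, Bax, which opens the outer mitochondrial membrane, of -0.71 ± 0.06, and Mdm2, the ligase that degrades p53, of -0.59 ± 0.06. Tnfrsf10b, a death receptor, differed by -1.50 without overlap, and Gdf15, a stress cytokine, by -1.77 with overlap. Cdkn1a, the p53-induced cell cycle inhibitor, did not pass the test (-0.10, adjusted p = 0.49), and Trp53inp1, another p53 target, went the other way (0.57 ± 0.06).

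Of 29 tested interferon response and antigen presentation genes (40 listed), 16 (55.2%) were higher with shRNA 2 and 5 (17.2%) with shRNA 1. The shares of all genes were 25.9% and 27.3%, and the list's median log2 difference was -0.478. These were mostly scarce transcripts: Oasl2, an interferon-induced antiviral protein, had 0.695 scaled CPM with shRNA 1 and 2.21 with shRNA 2 (log2 difference -1.51 ± 0.28), and Ifit1, which binds foreign RNA ends, 0.201 and 0.905, with overlap and with no call by DESeq2 (adjusted p = 0.0976). Tap1, the peptide transporter of antigen presentation, was better measured, at 19.0 with shRNA 1, 31.6 with shRNA 2 and 35.8 in the control (log2 difference -0.72 ± 0.10), while B2m, the light chain of class I molecules, went the other way (0.49 ± 0.08). The list moved with single libraries: the 5 became 2 without the exp108 library of either shRNA and 3 without the shRNA 2 library of exp109a or exp109b, the 16 became 10 without experiment exp109b, the 5 became 2 with library totals alone, with no experiment block and with the title number as the block, and the median was -0.317 without experiment exp108. Tap1, B2m, Ccng1, Hrk, Bax and the others given in these paragraphs beside the 3 largest of each list were chosen after their values were seen.

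Among 41 genes of the integrated stress and unfolded protein responses, 22 (53.7%) were higher with shRNA 2 and 8 (19.5%) with shRNA 1 (median -0.202). Of all genes, 25.9% and 27.3% were. Mthfd2, a mitochondrial folate enzyme induced by Atf4, was at 19.4, 11.8, 12.3 and 11.2 scaled CPM with shRNA 1 and 52.3, 31.6, 41.7 and 34.6 with shRNA 2. The groups did not overlap, the control lay between at 24.4, and the log2 difference was -1.54 ± 0.09. Atf4 itself differed by -0.65 ± 0.07, Ddit3, its pro-death target, by -0.54 ± 0.07, and the endoplasmic reticulum proteins Dnajb9 and Creld2 by -0.91 ± 0.07 and -1.09 ± 0.12. Other proteins of the endoplasmic reticulum were higher with shRNA 1: Hsp90b1 by 0.41 ± 0.05 and Pdia6, a disulfide isomerase, by 0.50 ± 0.05. The 8 became 5 with library totals alone and 4 without the experiment block.

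Cholesterol biosynthesis and uptake genes are driven together by the factor SREBP2. Of 30, 17 (56.7%) were higher with shRNA 2 and 3 (10.0%) with shRNA 1 (median -0.182), against 25.9% and 27.3% of all genes. Those higher with shRNA 2 included Mvk, mevalonate kinase (-0.79 ± 0.06), and Sc5d, an enzyme of late sterol synthesis (-0.75 ± 0.07). Mvk was at 88.6 ± 5.28 scaled CPM with shRNA 1 and 153 ± 6.22 with shRNA 2, without overlap. Against the shared control, 17 of the genes rose with shRNA 1 and 24 with shRNA 2. Fasn, fatty acid synthase, was higher with shRNA 1 (0.62 ± 0.05). Without the shRNA 2 library of exp107, and without the experiment block, the 17 higher with shRNA 2 became 11.

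Pan-neuronal, projection neuron, glutamatergic synapse and channel genes were more often higher with shRNA 1, inhibitory neuron genes equally often with each, and neuropeptide and aminergic receptor genes more often with shRNA 2. Elavl3, Tbr1, Shank1, Scn3b and Gabrg3 among them carried the words described above. Of 30 pan-neuronal genes, 18 (60.0%) were higher with shRNA 1 and 7 (23.3%) with shRNA 2 (median log2 difference 0.23), against 27.3% and 25.9% of all genes. The shares of all genes varied with level and genomic span. With genes cut into 4 equal bins, they were 41.92% and 27.67% at the highest level. In the bin of longest span they were 38.45% and 21.16%. The part of level and span in the counts of these neuronal lists was not tested. Beside Elavl3, Dcx, the microtubule protein of migrating neurons, was at 781 scaled CPM with shRNA 1, 424 with shRNA 2 and 537 in the control (log2 difference 0.88 ± 0.09). Mapt, the axonal protein tau, differed by 0.38 ± 0.05, and Rbfox2, a neuronal splicing factor, by -0.40 ± 0.04. Of 37 cortical projection neuron genes, 18 (48.6%) were higher with shRNA 1 and 4 (10.8%) with shRNA 2 (median 0.196). The 18 became 10 without the experiment block, and the 4 became 10 with library totals alone. Among the 18 were Tbr1, Foxp2 of deep layers (1.12 ± 0.12) and Slc17a7, the vesicular glutamate transporter. Slc17a7 was at 540.4, 435, 480.3 and 424 with shRNA 1 and 336, 248, 269 and 229 with shRNA 2, without overlap, and shRNA 1 raised it from the control, at 262, towards 25Q, at 536 (log2 difference between the shRNAs 0.80 ± 0.08). Fezf2, a factor of subcortical projection neurons, did not pass the test (-0.16, adjusted p = 0.15), but did with library totals alone (-0.246, adjusted p = 0.0341).

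Of 46 glutamatergic synapse genes, 24 (52.2%) were higher with shRNA 1 and 10 (21.7%) with shRNA 2 (median 0.155), against 27.3% and 25.9% of all genes; the 24 became 13 without the experiment block, where all genes called fell from 8030 to 5504. The scaffold genes led it: after Shank1 came Dlgap3 (0.94 ± 0.06), and Dlg4, which encodes PSD-95 and had the highest level per kilobase, differed by 0.49 ± 0.05. Shank3 went the other way (-0.61 ± 0.05), and the AMPA receptor subunit Gria2 did not pass the test (-0.05, adjusted p = 0.44) except with library totals alone (-0.131, adjusted p = 0.0179). Of 52 voltage-gated channel genes, 24 (46.2%) were higher with shRNA 1, 15 without the experiment block, and 14 (26.9%) with shRNA 2 (median 0.096). The sodium channel beta subunits Scn3b, Scn4b (-1.34 ± 0.36) and Scn2b were the 3 largest of that list, all lower with shRNA 1, while Kcnq3, a potassium channel that damps firing, was at 250.1 scaled CPM with shRNA 1, 138 with shRNA 2 and 130.2 in the control. Scn2a, the pore-forming subunit with the highest level per kilobase, did not pass the test (0.09 ± 0.05), and did without the shRNA 1 library of exp107 (0.139, adjusted p = 0.0154).

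Of 39 inhibitory neuron and GABA receptor genes, 10 (25.6%) were higher with each shRNA, close to the 27.3% and 25.9% of all genes. Their median was 0.074, which turned negative when counts were scaled to library totals alone. The 10 higher with shRNA 1 became 5 without the shRNA 2 library of exp109a or exp109b. Without the experiment block the counts were 5 and 5, and those higher with shRNA 1 were 6 with library totals alone or with the title number as the block. Gabrg3 and Dlx6 (-0.89 ± 0.16), a factor of interneuron precursors, were lower with shRNA 1, and Gabbr2, a GABA-B receptor subunit, was higher (0.80 ± 0.06). Of 50 tested neuropeptide and aminergic receptor genes (55 listed), 9 were higher with shRNA 1 and 19 with shRNA 2 (median -0.111), and the 19 became 11 without experiment exp107. Without the experiment block the 9 and 19 became 5 and 9. Hcrtr1, an orexin receptor, was at 4.94 scaled CPM with shRNA 1 and 12.2 with shRNA 2, and Oprm1, the mu opioid receptor, at 4.73 and 1.88 with overlap. Of 45 activity-regulated genes, 17 were higher with shRNA 1 and 9 with shRNA 2, or 5 without the experiment block (median 0.196). Nptx2, a pentraxin that clusters AMPA receptors, was higher with shRNA 1 (1.03 ± 0.09), while the stress-responsive factor Atf3 (-1.13 ± 0.23) and the secreted peptide precursor Vgf (-0.83 ± 0.19) were higher with shRNA 2; the call of Vgf was lost with only the 8 shRNA libraries (adjusted p = 0.0638).

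The list nearest to Twist1, its bHLH partners and the Id factors that bind them, had 23 tested of 25. Of these, 11 (47.8%) were higher with shRNA 1 and 4 (17.4%) with shRNA 2 (median 0.176), against 27.3% and 25.9% of all genes. The 4 became 2 without the shRNA 2 library of exp109b, without the experiment block and with the title number as the block. Id3, which blocks bHLH dimers, was at 31.2, 38.4, 33.6 and 23.7 scaled CPM with shRNA 1 and 10.8, 17.7, 14.4 and 12.3 with shRNA 2, without overlap, and at 13.5 in the control (log2 difference 1.19 ± 0.12). Id1 (0.60 ± 0.14) and Id2 (0.62 ± 0.08) went the same way, Neurod1, a bHLH factor of new neurons, differed by 0.68 ± 0.09, and the E protein Tcf3 by 0.22 ± 0.05. Epithelial-mesenchymal transition and matrix genes, the programme Twist1 is known for, had 32 tested of 40, with 15 (46.9%) higher with shRNA 1 and 3 (9.4%) with shRNA 2 (median 0.161). Thbs1, a matrix glycoprotein, was at 9.86 scaled CPM with shRNA 1, 3.37 with shRNA 2 and 2.94 in the control. Vim, the intermediate filament vimentin, which glia also express, differed by 0.44 ± 0.05, and Mmp9, a matrix protease, by -1.03 ± 0.24.

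Among 60 axon guidance and cell adhesion genes, 30 were higher with shRNA 1 and 7 with shRNA 2 (median 0.207); the 7 became 4 without the shRNA 1 library of exp107, 2 without the experiment block and 3 with the title number as the block. Plxnd1, a semaphorin receptor, was at 148, 98.7, 178 and 108 with shRNA 1 and 66.3, 30.6, 50.3 and 41.7 with shRNA 2, without overlap (log2 difference 1.50 ± 0.21), followed by the adhesion protein Flrt3 (0.93 ± 0.08) and the guidance cue Sema3c (0.85 ± 0.07), while the ephrin Efna5 was higher with shRNA 2 (-0.71 ± 0.12). TGF-beta and BMP signalling genes (39 tested of 41) had 16 (41.0%) and 11 (28.2%) (median 0.127), the latter near the share of all genes. The 11 became 6 without the experiment block and 7 with the title number as the block. The ligand Bmp6 was at 1.95 scaled CPM with shRNA 1 and 0.481 with shRNA 2, the follistatin-like gene Fstl4 at 16.8 and 7.18, and the inhibitory protein Smad6 differed by 0.97 ± 0.38, a call lost without the experiment block (adjusted p = 0.0533). Wnt and Notch signalling genes (41 tested of 44) had 11 (26.8%) and 13 (31.7%), near the shares of all genes. Their median was 0.008, negative with upper-quartile factors or library totals alone. Without the experiment block the counts were 5 and 7, and with the title number as the block 8 were higher with shRNA 2. Fzd3 and the ligand Wnt10a (-1.59 ± 0.26) were lower with shRNA 1 and the ligand Wnt9a (0.95 ± 0.22) was higher.

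Of 19 tested genes of the small RNA machinery (20 listed), on which shRNAs themselves depend, 5 (26.3%) were higher with each shRNA, close to the 27.3% and 25.9% of all genes (median 0.077, negative with library totals alone). Tnrc6b and Tnrc6c encode related Argonaute partners. Tnrc6b was at 149.5 scaled CPM with shRNA 1, 286 with shRNA 2 and 267 in the control, and Tnrc6c at 254, 99.8 and 184. Their log2 differences were -0.94 ± 0.05 and 1.35 ± 0.05, opposite in sign and without overlap. Ago2, the cleaving Argonaute, differed by -0.46 ± 0.05, Dicer1 by -0.32 ± 0.06, Drosha, which crops primary microRNAs, by 0.47 ± 0.06, and the RNA editing enzyme Adarb1 by -0.74 ± 0.05. Chromatin regulators of Polycomb and DNA methylation (40 tested) had 13 higher with shRNA 1 and 10 with shRNA 2 (median 0.02, negative with library totals alone); the 13 became 7 with library totals alone, and without the experiment block the counts were 8 and 6. Kdm6b, a demethylase that opposes Polycomb, differed by 0.69 ± 0.08, the Polycomb reader Cbx2 by 0.60 ± 0.11 and the Polycomb core subunit Suz12 by -0.46 ± 0.08. Neuronal splicing and RNA-binding protein genes (36 tested of 38) had 18 and 10 (median 0.137), with Elavl3 highest and Igf2bp1, which stabilises transcripts in progenitors, lowest (-1.55 ± 0.20). Cytosolic chaperone genes (34 tested of 35) had 9 (26.5%) and 11 (32.4%), near the shares of all genes (median -0.017). Dnajb2 and Hspa12a (-0.76 ± 0.06) were lower and Cryab, a small heat shock protein of glia, higher with shRNA 1 (0.89 ± 0.09). The 9 became 5 without the shRNA 2 library of exp109b, 3 with library totals alone or the title number as the block, and 2 without the experiment block.

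**Figure D5:**
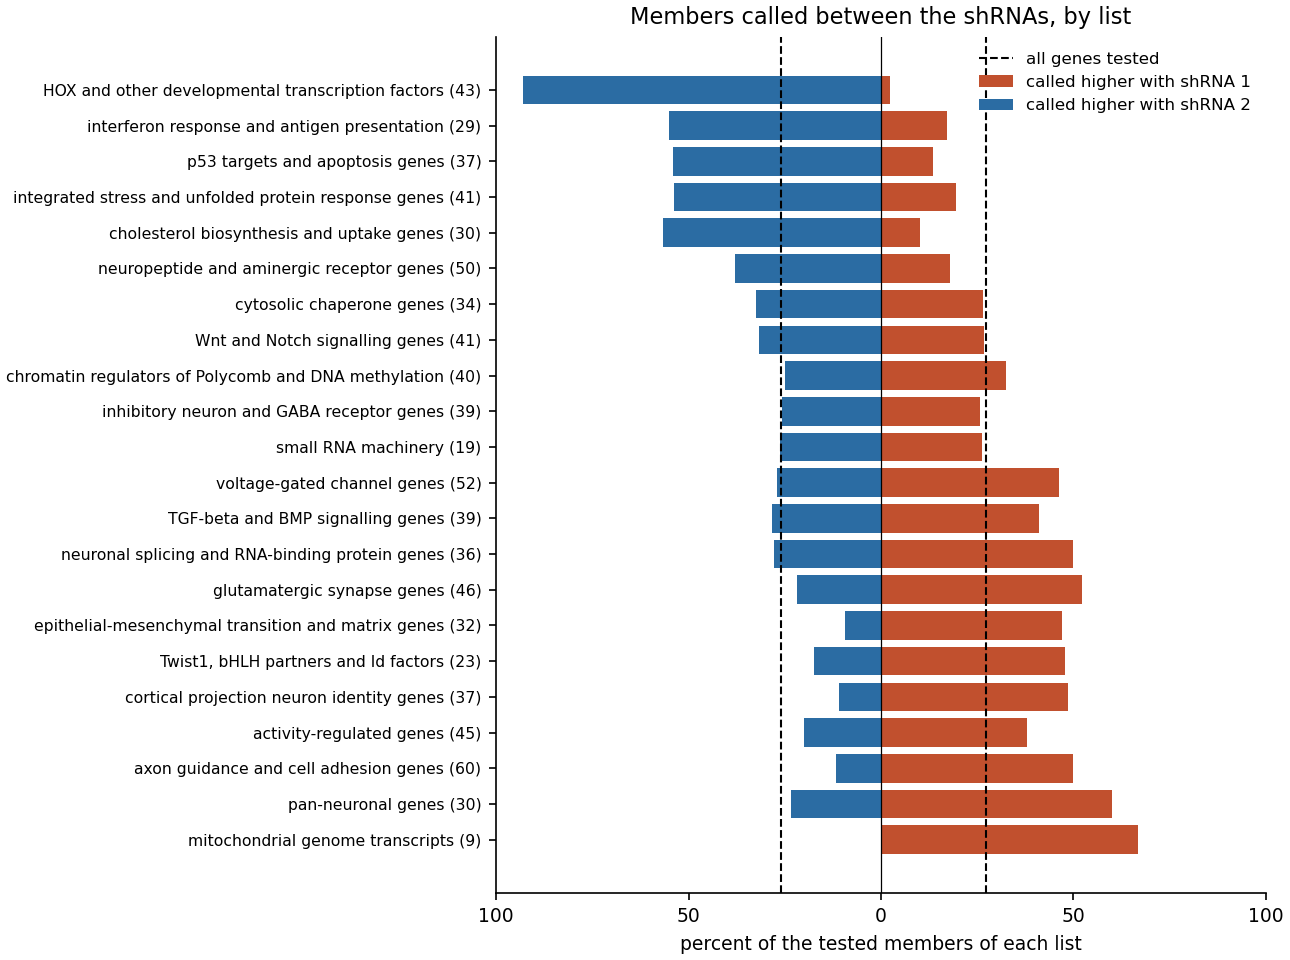
Percent of each list's tested genes higher with shRNA 1 and higher with shRNA 2 (x), 1 pair of bars per list (rows); dashed lines mark the shares over all 15103 genes, 27.3% and 25.9%. The developmental factors have the longest bar towards shRNA 2, and the transcripts of the mitochondrial genome have none on that side.

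Some transcripts were moved alike by the shRNAs. By the rule used for naming, each gene was called against the control with both shRNAs and the 95% interval of the difference between the shRNAs lay within 0.5 of 0 on the log2 scale. Grin2a, an NMDA receptor subunit of maturing synapses, rose from 11.7 scaled CPM in the control to 29.4 with shRNA 1 and 26.9 with shRNA 2 (log2 difference between them 0.12 ± 0.07, 95% interval -0.03 to 0.26), and stood at 24.97 in 25Q. Pnpla3, a lipase, Esr1, the estrogen receptor, Car12, a carbonic anhydrase, and Gm16485 also rose with both, with intervals of -0.10 to 0.48, -0.31 to 0.34, -0.34 to 0.15 and -0.47 to 0.07 for the difference. Tfcp2l1, a pluripotency factor, fell from 13.1 to 5.81 and 5.69, and was low in 25Q, at 3.68. Col26a1, a collagen, and Fam78b fell with both shRNAs and did not differ between them, and Tvp23a, a Golgi protein, fell with both but by more with shRNA 1 (-0.25 ± 0.06).

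The difference between the shRNAs was set against the effect of mutant huntingtin, 72Q against 25Q with control shRNA, a comparison with no library in common with it, in which 8628 genes (57.1%) differed. Of the 555 genes that 72Q raised by at least 2-fold, 301 (54.23%) were higher with shRNA 2 and 40 (7.21%) with shRNA 1, with a median log2 difference of -0.56. Of the 634 that 72Q lowered by at least 2-fold, 277 (43.69%) were higher with shRNA 1 and 87 (13.72%) with shRNA 2, with a median of 0.254. Among 6475 genes that 72Q did not change by the test, the shares were 21.0% and 22.61%. Slc17a7 was among the 277 and Pou4f1 among the 301. Across all 15103 genes the 2 sets of log2 differences had a Pearson r of -0.348, a description over genes, which are not independent. Genes also differed by size and by level. With genes cut into 4 equal bins of genomic span, of the longest bin 38.45% were higher with shRNA 1 and 21.16% with shRNA 2, and of the shortest bin 19.2% and 27.36%. Cut in the same way by level, the highest bin had 41.92% and 27.67%, and the lowest 10.86% and 19.54%. Span and level were not separated, and their part in the counts of the gene lists above was not tested.

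Among markers of the cell types a cortical culture can hold, those of astrocytes were more often higher with shRNA 1. In bulk libraries, fewer cells of a type and less RNA per cell cannot be told apart. Of 16 astrocyte markers, 9 (56.2%) were higher with shRNA 1 and 1 (6.2%) with shRNA 2 (median 0.215), against 27.3% and 25.9% of all genes. Their summed level was 6522 to 7199 CPM with shRNA 1 and 5283 to 6723 with shRNA 2. Gja1, the astrocyte connexin, was at 202 scaled CPM with shRNA 1 and 128 with shRNA 2 (log2 difference 0.65 ± 0.05), Slc1a3, a glutamate transporter, differed by 0.45 ± 0.05, and Gfap did not pass the test (0.13 ± 0.20, adjusted p = 0.64). Oligodendrocyte lineage markers (13 tested of 14) had 9 (69.2%) higher with shRNA 1 and none with shRNA 2 (median 0.252), with sums of 1087 to 1278 and 962 to 1224 CPM. The 9 became 2 without the experiment block and 3 with the title number as the block, and 1 was higher with shRNA 2 without the shRNA 2 library of exp109a or with library totals alone. Sox10, their lineage factor, differed by 0.32 ± 0.06. Neuron markers, 6 and 4 of 11 (2 and 2 without the experiment block, 3 higher with shRNA 1 with library totals alone, 2 higher with shRNA 2 with the title number as the block), summed to 6624 to 7408 and 6303 to 7214 CPM, and progenitor markers, 8 and 4 of 20 (median 0.198; the 4 became 2 without the shRNA 1 library of exp107, exp109a or exp109b or the shRNA 2 library of exp107, with DESeq2, with either other choice of block or with exp109a and exp109b summed, and the 8 became 5 without the experiment block), to 718 to 867 and 651 to 795 CPM. Microglial markers were scarce, with 5 of 15 tested and sums of 27.6 to 35.9 and 29.2 to 33.8 CPM, as were endothelial, mural and meningeal markers, with 10 of 19 tested and sums of 27.0 to 33.0 and 25.9 to 36.5 CPM; of the microglial markers 2 were higher with shRNA 1 and 1 with shRNA 2, and of the vascular and meningeal markers 2 and 4. Leaving out the exp107 or exp109a library of either shRNA, or the exp108 library of shRNA 1, took the microglial 2 to 1, and without the exp109a library of shRNA 1 the microglial 1 became 2. Without the exp107 library of shRNA 1 the vascular counts were 1 and 2, and without the exp107 or exp109a library of shRNA 2 the first of them was 1. Over the other scalings, tests and blocks the microglial counts were 1 to 2 with each shRNA, the vascular counts 0 to 2 and 2 to 4, and the astrocyte counts 6 to 9 and 1 to 2. 1 microglial marker was at 0 in both shRNA groups, and no other listed marker was. Of the 9 tested transcripts of the mitochondrial genome, 6 were higher with shRNA 1 (median 0.313), such as mt-Cytb (0.39 ± 0.10, with overlap), and 3 without experiment exp109a. The part of glial share and mitochondrial transcripts in the gene differences above was not tested.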

How the data were processed

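RNA was measured by sequencing of rRNA-depleted libraries. Reads were aligned with STAR 2.0.4b and counted per gene with featureCounts 1.45 of the Subread package on GRCm38, per the submitters' processing notes; the annotation release, strand setting and treatment of multi-mapping reads were not given in the sources used here. Reads of a gene and of one that overlaps it or lies antisense may be mixed. The authors deposited a raw read count for 41388 Ensembl genes in each of 16 libraries. The CPM values that the authors deposited equal each count scaled to the library's total, and the deposited RPKM values equal that CPM per kilobase of gene length; neither entered a test. Of the 41388 genes, 40254 (97.26%) were given a symbol, and sequences are from GENCODE M21.

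Counts were filtered with filterByExpr (15103 genes kept), scaled by TMM and fitted with edgeR 4.0.16 (R 4.3.3; glmQLFit and glmQLFTest, robust, prior count 2), with group and experiment as terms over all 16 libraries; p-values were adjusted by the Benjamini-Hochberg method at 0.05. Experiment is the block because the labels tie a library of each group to each experiment and because deviations from the group means correlated between shRNA 1 and shRNA 2 libraries of the same experiment (0.290 to 0.526), more than between different ones (-0.291 to 0.172), of which exp109a with exp109b alone was above 0 (0.152 and 0.172). Between replicates of a group, the variance of counts was 2.71 to 20.82 times that of sampling noise, measured as chi-square per degree of freedom. DESeq2 1.42.0, other scalings, no filter, other blocks, and leaving out each library or experiment were the alternatives, and summing exp109a and exp109b was added after the data were seen. The genes named are Twist1, Htt, the 15 highest and 15 lowest called genes with at least 1 CPM and 1 sign in all experiments, 5 each moved alike or oppositely, and from each list the 3 largest and the member highest per kilobase; some of these are not reported here. Further list members were chosen after their values were seen, and the gene lists and groups were chosen with earlier results of these data known. The fit and the word ranking were tested on simulated data.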

Additional observations from a re-analysis of the deposited data

Results flagged for a closer look

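In 262 sets of 4 libraries, those of the genes named above and of 3 library measures under each shRNA, 9 had a library whose gap to the nearest of the others, over the whole range, passed Dixon's 95% critical value; chance alone gives about 1 in 20. With shRNA 1, exp107 was high for Mthfd2 (19.4 scaled CPM, the others 11.23 to 12.26) and for Bmp6 (2.469 scaled CPM, the others 1.746 to 1.808). With the same shRNA, exp108 was high for Nptx2 (24.14 scaled CPM, the others 18.22 to 18.98), and exp109b was low for Id1 (8.607 scaled CPM, the others 10.85 to 11.3) and Id2 (42.35 scaled CPM, the others 50.38 to 51.58). With shRNA 2, exp107 was low for Car12 (7.737 scaled CPM, the others 10.43 to 10.82) and exp108 high for Igf2bp1 (4.814 scaled CPM, the others 3.554 to 3.707). Under that shRNA exp109a was low for Irx2 (2.334 scaled CPM, the others 3.173 to 3.341) and exp109b low for Nptx2 (7.903 scaled CPM, the others 10.12 to 10.48). All 4 shRNA 1 libraries stayed on the same side of all 4 shRNA 2 libraries for each of these genes except Car12.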

How the results depend on the processing

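The count of genes that differed, 8030, was 5504 with no replicate block and 6299 with the title number as the block, 7982 with RLE and 8008 with upper-quartile factors, 8131 with library totals alone, 7279 with DESeq2, 7897 with no filter, 8057 with only the 8 shRNA libraries and 7646 with exp109a and exp109b summed, a choice made after the data were seen; leaving out single libraries gave 7209 to 7533 and leaving out experiments 6887 to 7291. DESeq2 called 7261 of the 8030 and 18 others. Of genes differing by at least 2-fold, 586, the same settings gave 541 to 764. With no replicate block the genes called against the control fell to 4561 for shRNA 1 and 3621 for shRNA 2, and the pairing by experiment is that of the labels. The log2 difference of Twist1 stayed between -0.217 and 0.068 and was never called (adjusted p 0.492 to 0.97). The medians of genes with and without AAGCTGA or AGCTGAA differed by -0.113 to -0.101, and for CAGACCC or GACCCTC by 0.096 to 0.111. The median of the 5 microglial genes, 0.265, turned to -0.357 with no filter and ranged from -0.002 (without experiment exp109b) to 0.374 (without the exp109a library of shRNA 2) when libraries or experiments were left out; the cause was not tested. None of the named genes reversed: 74 repeats of a gene's test lost a call and 27 gained one, and 3148 stayed on the same side of the threshold, called or not. Genes of under about 1 scaled CPM rest on few reads, which limits their fitted differences.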

Other observations

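A 3′UTR word that did not separate the shRNAs was the highest-ranked against the control with each of them. GTATGCA, found in the 3′UTRs of 1191 genes (8.75%) and nowhere in the Twist1 transcript, had a shift of 0.1147 for shRNA 1 and 0.1252 for shRNA 2 against the control, and of -0.009 between the shRNAs. For 72Q against 25Q its shift was 0.0224. The words next to it in rank, TATGCAA (0.0767 and 0.0509) and AGTATGC (0.0606 and 0.0588), overlap it by 6 bases. Both comparisons share the 4 libraries of the control shRNA, whose hairpin sequence was not used here, and the ranking was made after the values had been seen.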
